A study of Mus musculus with 24 samples.

Results

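A set of transcription factor genes of fold and limb-type mesenchyme was followed through diaphragm development in the mouse: Tbx2, Tbx3, Tbx5, Tcf21, Twist1, Twist2, Prrx1, Prrx2, Osr1 and Osr2. They were chosen by name, with earlier results of these data known, 10 genes of the 19351 measured by probe sets assigned to a single gene. The C57BL/6J embryos had no named genetic change or treatment, and laser capture on frozen sections isolated the tissue. The groups were pleuroperitoneal folds at E11.5, pleuroperitoneal folds at E12.5 and diaphragm at E16.5, each with 8 arrays, 24 in all. The array titles use the fold's name at all 3 stages. Folds were taken from transverse sections and the E16.5 tissue from sagittal ones, so plane of section and stage cannot be told apart for E16.5. The labels do not say which arrays came from separate embryos, so p-values measure only the spread between these samples.

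Pleuroperitoneal folds are paired ridges of mesenchyme that carry muscle progenitors into the future diaphragm and give rise to its connective tissue. T-box proteins, basic helix-loop-helix (bHLH) proteins, paired-related homeodomain proteins and odd-skipped zinc finger proteins are transcription factors that pattern limb, body wall and visceral mesenchyme, and several of them occur as paralogues with partly shared roles. Tcf21 and Osr1 also mark precursors of fibroblasts in other embryonic tissues. The tissue was measured in bulk, so fewer mesenchymal cells and less RNA of a gene per cell cannot be told apart.

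The sequences before the transcription start of the 3 bHLH factors are shown because these genes divided widely at E16.5: Twist1 fell steeply, its paralogue Twist2 fell less, and Tcf21 did not pass the test. Each is the 250 bases before a start site annotated by RefSeq (GRCm38.p6), read 5' to 3' in the direction of the gene. Capitals mark the letters TATAA (core of the TATA box), those of the CCAAT box and the GC box GGGCGG, searched on both strands, and no marked stretch overlaps another. The windows are chr12:33957421-33957670 on the plus strand for Twist1, chr1:91801211-91801460 on the plus strand for Twist2 and chr10:22820144-22820393 on the minus strand for Tcf21.
Twist1: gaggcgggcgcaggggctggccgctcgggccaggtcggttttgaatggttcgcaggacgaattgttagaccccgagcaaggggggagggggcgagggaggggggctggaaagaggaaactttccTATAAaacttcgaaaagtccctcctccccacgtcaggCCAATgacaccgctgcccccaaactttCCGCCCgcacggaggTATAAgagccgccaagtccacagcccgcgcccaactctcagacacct
Twist2: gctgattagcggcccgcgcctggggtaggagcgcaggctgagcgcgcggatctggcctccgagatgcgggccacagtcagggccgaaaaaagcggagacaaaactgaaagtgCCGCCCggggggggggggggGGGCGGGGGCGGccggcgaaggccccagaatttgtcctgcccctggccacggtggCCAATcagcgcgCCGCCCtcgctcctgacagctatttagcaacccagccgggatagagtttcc
Tcf21: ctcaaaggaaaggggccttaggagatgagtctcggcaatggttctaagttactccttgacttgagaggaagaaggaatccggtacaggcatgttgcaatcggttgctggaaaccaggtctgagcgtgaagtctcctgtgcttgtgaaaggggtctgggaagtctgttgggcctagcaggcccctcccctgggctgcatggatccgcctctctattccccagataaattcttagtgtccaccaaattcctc
The Twist1 window held TATAA at 126 and 47 bases before the start, CCAAT at 89 and GGGCGG at 62. The Twist2 window lacked TATAA. It held CCAAT at 63 bases before the start and the GC box letters at 138, 118, 112 and 51. The Tcf21 window held none of the 3 motifs. Among 32851 windows of the same length in the table, 22.8% held TATAA, 33.8% CCAAT and 32.7% GGGCGG. The E-box CANNTG, the core letters bound by bHLH dimers, was in 66.2% of all windows and in none of these 3. The windows were 62.4% G and C for Twist1, 68.8% for Twist2 and 52.4% for Tcf21, against a median of 52.4%.

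All values are log2 intensities as the authors deposited them; precision depends on how many arrays a stage has. An array's median over genes lay between 7.45 and 7.57 and its lower quartile between 6.40 and 6.64. A gene below its array's lower quartile is called dim here, since signal is not told from background there. Array values of different genes are not compared with each other, because probe sets differ in brightness. Means are given ± SD over n = 8 arrays and log2 changes ± SE from a limma fit over all genes, with Benjamini-Hochberg adjustment and a threshold of 0.05. The later 2 comparisons share the E16.5 arrays, and E12.5 enters both steps. E16.5 replicates 1 to 4 stood apart from replicates 5 to 8, with no overlap for 11.6% of all genes and no label that explains it, and E12.5 replicates 2 and 3 were extreme for hepatocyte and muscle markers. Values without these arrays are given where a call changed; leaving out E12.5 replicates 2 and 3 together changed none of the factors' calls.

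Most of these factors were lower in the E16.5 diaphragm than in the folds, and none changed past the threshold between E11.5 and E12.5. Twist1, Tbx5 and Osr1 fell most between E12.5 and E16.5, by 2.64-fold to 3.50-fold, and their arrays did not overlap between those stages. Tbx2, Twist2 and Prrx2 fell by smaller amounts. Prrx1 went the other way and rose 1.93-fold. From E12.5 to E16.5, 6 of the 10 genes fell, 1 rose and 3 were not past the threshold; over all genes 27.1% changed, 15.6% by falling, and 2223 of 19351 rose. The median log2 change of the 10 was -0.50, against -0.02 over all genes. The same 3 factors fell by 2-fold or more, as did 1.76% of all genes, and lay wholly below E12.5, as did 5.4%. Ranked by log2 change from the deepest fall, Twist1 held place 41, Tbx5 place 53 and Osr1 place 104 of 19351. Since earlier results were known when the genes were chosen, these shares and places describe the list and test nothing.

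**Figure D1:**
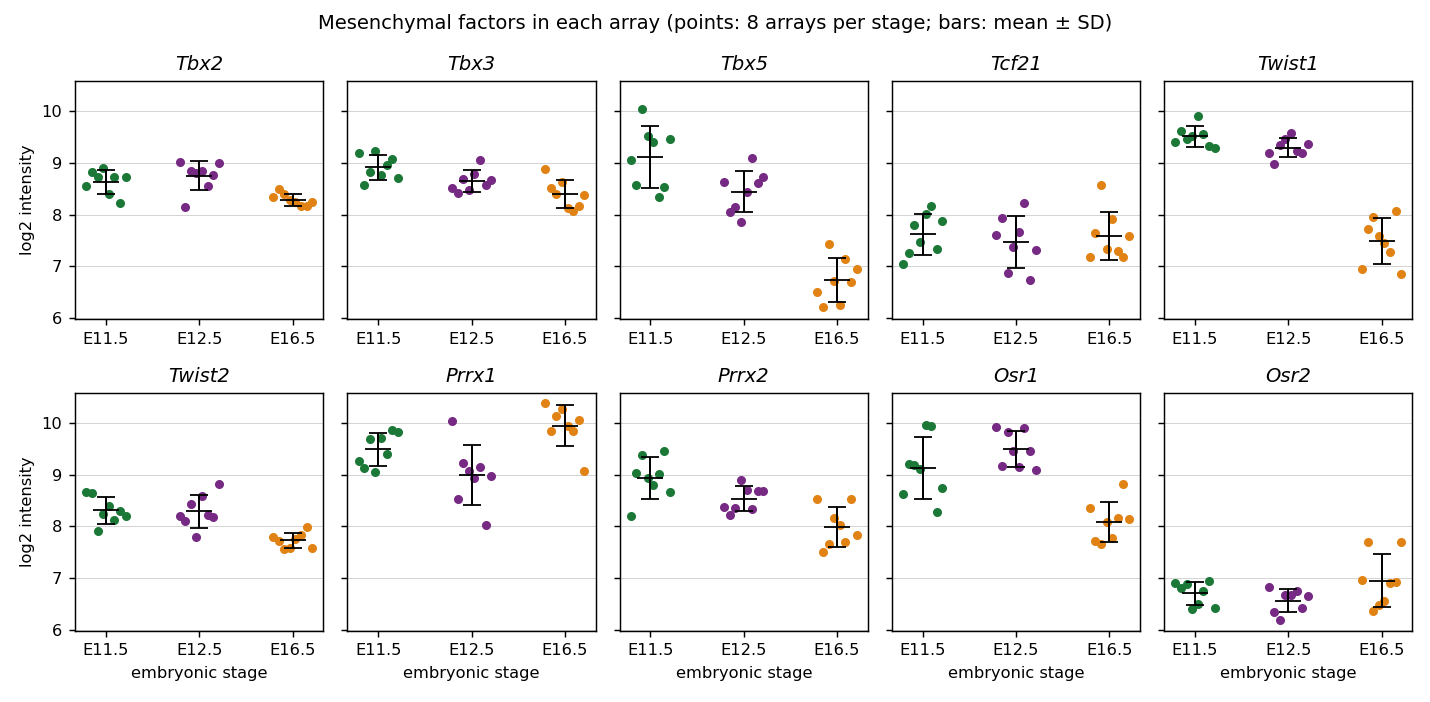
Log2 intensity (vertical axes) of each of the 10 factors against stage (horizontal axes), with 1 point per array, 8 arrays a stage, and bars for mean ± SD. The E16.5 points of Tbx5, Twist1 and Osr1 lie wholly below those of E12.5, while those of Prrx1 centre on 9.94 against 8.99. Heights of different genes are not comparable.

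Against E11.5 the E16.5 diaphragm had 7 of 10 factors lower in limma, 0 higher (1 higher at an unadjusted p under 0.05) and 3 not past the threshold, with a median log2 change of -0.55 against -0.08 over all genes. Of all genes, 33.5% changed in that comparison and 19.6% were lower. Tbx5, Twist1 and Osr1 were again lower by 2-fold or more, as were 1.95% of all genes, and Tbx5 and Twist1 lay wholly below E11.5, as did 3.86%. Between E11.5 and E12.5 limma called 0 of the 10, where 0.388% of all genes changed. At an unadjusted p under 0.05 there were 4 of the 10, all lower, where 8.14% of all genes were lower: Tbx3, Tbx5, Prrx1 and Prrx2, with log2 changes of -0.27, -0.68, -0.50 and -0.40 (adjusted p = 0.306, 0.192, 0.287 and 0.278). The median of the 10 was -0.19 at this step, and -0.03 over all genes. Over this step 8 of the 10 estimates were negative and 2, those of Tbx2 and Osr1, positive.

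Tbx5, a T-box activator needed for forelimb outgrowth and heart formation, fell furthest over the whole interval. At E11.5 its arrays ran from 8.34 through a median of 9.23 to 10.05. At E12.5 they ran from 7.86 through 8.53 to 9.09, and at E16.5 from 6.21 through 6.71 to 7.44. All 8 arrays at E12.5 were below the E11.5 median, but only 3 were below the lowest array of E11.5, so these stages overlapped. The E16.5 arrays lay wholly below both fold stages. Means were 9.12 ± 0.59, 8.44 ± 0.40 and 6.74 ± 0.43. The log2 change was -0.68 ± 0.23 from E11.5 to E12.5 (adjusted p = 0.192), and then -1.71 ± 0.23 to E16.5 (adjusted p = 2.22e-06), 3.27-fold lower. Over the whole interval it was -2.38 ± 0.23 (adjusted p = 7.87e-09), 5.21-fold lower. At E16.5 Tbx5 was below the array median in 8 of 8 arrays and dim in 3, so the size of its fall is uncertain.

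Tbx2 and Tbx3 encode T-box repressors, and their estimated changes were smaller than those of Tbx5. Tbx2 ran from 8.22 through a median of 8.73 to 8.91 at E11.5, from 8.16 through 8.82 to 9.02 at E12.5 and from 8.16 through 8.27 to 8.50 at E16.5. All 8 diaphragm arrays were below the median of each fold stage, but none was below the lowest E12.5 array, replicate 2 at 8.16. Means were 8.64 ± 0.23, 8.75 ± 0.28 and 8.29 ± 0.12. Tbx2 fell by 0.46 ± 0.11 on the log2 scale from E12.5 (adjusted p = 0.00205) and fell by 0.35 ± 0.11 from E11.5 (adjusted p = 0.0154). Tbx3 ran from 8.57 through 8.89 to 9.23 at E11.5, from 8.42 through 8.62 to 9.07 at E12.5 and from 8.07 through 8.39 to 8.89 at E16.5. Means were 8.92 ± 0.24, 8.65 ± 0.21 and 8.40 ± 0.28. Its stages overlapped at each step, and its medians declined in stage order. Tbx3 fell by 0.52 ± 0.12 between E11.5 and E16.5 (adjusted p = 0.00132), while neither step alone passed: -0.27 ± 0.12 for the first (adjusted p = 0.306) and -0.25 ± 0.12 for the second (adjusted p = 0.129). Without E16.5 replicate 1, the highest of its stage, the second step passed (-0.32, adjusted p = 0.0373).

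Both repressors were higher in 4 of the diaphragm arrays than in the others. In replicates 1 to 4 of E16.5 Tbx2 lay between 8.29 and 8.50 and in replicates 5 to 8 between 8.16 and 8.24. Tbx3 lay between 8.41 and 8.89 in the former and between 8.07 and 8.37 in the latter. These sets did not overlap for 2 of the 10 factors, both higher in replicates 1 to 4, where 6.43% of all genes did not overlap that way. With replicates 5 to 8 left out, Tbx2 no longer passed against E12.5 (-0.37, adjusted p = 0.0601) or E11.5 (-0.26, adjusted p = 0.185), nor Tbx3 against E11.5 (-0.30, adjusted p = 0.0932). With replicates 1 to 4 left out, Tbx3 passed against E12.5 (-0.46, adjusted p = 0.0125). Without replicates 5 to 8 that change was -0.04.

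Twist1, a bHLH factor of head, limb and somite mesenchyme, kept a narrow range in the folds and dropped in the diaphragm. It ran from 9.29 through a median of 9.49 to 9.92 at E11.5 and from 8.98 through 9.29 to 9.59 at E12.5, then from 6.86 through 7.52 to 8.08 at E16.5. The 2 fold stages overlapped, and every diaphragm array lay below every fold array. Means were 9.51 ± 0.20, 9.30 ± 0.19 and 7.49 ± 0.44. The first step gave a log2 change of -0.22 ± 0.14 (adjusted p = 0.487), and the second -1.81 ± 0.14 (adjusted p = 5.23e-10), 3.50-fold lower. Over the whole interval it was -2.03 ± 0.14 (adjusted p = 4.48e-11). At E16.5 Twist1 was above the array's median over genes in 4 arrays and below it in 4, and it was dim in 0.

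Twist2, the paralogue known from dermal and bone mesenchyme, fell by less. Its arrays ran from 7.91 through 8.26 to 8.66 at E11.5, from 7.79 through 8.21 to 8.83 at E12.5 and from 7.56 through 7.73 to 7.99 at E16.5. All 8 diaphragm arrays were below the median of each fold stage, and 7 were below the lowest E11.5 array. Means were 8.31 ± 0.26, 8.29 ± 0.32 and 7.73 ± 0.15. The log2 change was -0.01 ± 0.12 between the fold stages (adjusted p = 0.968), -0.57 ± 0.12 from E12.5 to E16.5 (adjusted p = 0.000833) and -0.58 ± 0.12 from E11.5 (adjusted p = 0.000574).

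Tcf21, the bHLH factor of visceral mesenchyme and fibroblast precursors, had much the same centre at each stage and a wide spread within them. It ran from 7.05 through 7.63 to 8.17 at E11.5, from 6.74 through 7.49 to 8.23 at E12.5 and from 7.17 through 7.46 to 8.57 at E16.5. The ranges of all 3 stages overlapped, with means of 7.62 ± 0.40, 7.47 ± 0.50 and 7.59 ± 0.47. Log2 changes were -0.16 ± 0.22, 0.12 ± 0.22 and, over the whole interval, -0.04 ± 0.22 (adjusted p = 0.758, 0.764 and 0.917). With a standard error of this size and 8 arrays a stage, shifts well above 0.22 could also go undetected. Tbx5, with a standard error of 0.23, did not pass at -0.68 from E11.5 to E12.5. The lowest E12.5 arrays, replicates 3 and 7, lay at 6.87 and 6.74, and the highest diaphragm array, replicate 3, at 8.57.

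Prrx1, the paired-related homeobox gene that marks limb bud and connective tissue mesenchyme, was the member that rose. Its arrays ran from 9.05 through a median of 9.55 to 9.86 at E11.5, from 8.02 through 9.02 to 10.04 at E12.5 and from 9.08 through 10.00 to 10.38 at E16.5. Every diaphragm array was above the E12.5 median, and 4 of 8 were above the highest E12.5 array, replicate 1 at 10.04. The log2 change was -0.50 ± 0.21 at the first step (adjusted p = 0.287) and 0.95 ± 0.21 at the second (adjusted p = 0.00109), 1.93-fold higher. Against E11.5 it was 0.45 ± 0.21 (adjusted p = 0.101), with 7 of 8 diaphragm arrays above the E11.5 median. The order of means was E16.5 at 9.94 ± 0.40, E11.5 at 9.49 ± 0.32 and E12.5 at 8.99 ± 0.58, of which only E16.5 and E12.5 differed past the threshold. E16.5 replicate 8 was low, at 9.08 against 9.85 or more in the other diaphragm arrays, and without it the change from E11.5 passed (0.58, adjusted p = 0.0286). With E16.5 replicates 1 to 4 left out, the rise from E12.5 was 0.74 and did not pass (adjusted p = 0.0576).

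Prrx2, the paralogue of Prrx1 and also a gene of limb and face mesenchyme, fell where Prrx1 rose. It ran from 8.20 through 8.98 to 9.46 at E11.5, from 8.22 through 8.52 to 8.90 at E12.5 and from 7.50 through 7.92 to 8.53 at E16.5. Of the 8 diaphragm arrays, 6 were below the lowest array of E12.5, and replicates 1 and 7, at 8.53 each, were within the E12.5 range. Means were 8.93 ± 0.40, 8.53 ± 0.24 and 7.99 ± 0.39. Prrx2 fell by 0.54 ± 0.17 on the log2 scale from E12.5 to E16.5 (adjusted p = 0.0166) and fell by 0.94 ± 0.17 from E11.5 (adjusted p = 8.27e-05), 1.92-fold lower. The first step was -0.40 ± 0.17 (adjusted p = 0.278), with all 8 E12.5 arrays below the E11.5 median. Without E16.5 replicates 1 to 4 the change from E12.5 was -0.51 and did not pass (adjusted p = 0.0764).

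Osr1, an odd-skipped zinc finger factor of intermediate mesoderm and muscle connective tissue progenitors, was lowest at E16.5. Its arrays ran from 8.28 through a median of 9.14 to 9.96 at E11.5, from 9.08 through 9.45 to 9.92 at E12.5 and from 7.67 through 8.11 to 8.82 at E16.5. The diaphragm arrays lay wholly below E12.5, and 6 of 8 lay below the lowest E11.5 array. Means were 9.13 ± 0.60, 9.49 ± 0.35 and 8.09 ± 0.38. The first step gave 0.36 ± 0.22 (adjusted p = 0.439) and the second -1.40 ± 0.22 (adjusted p = 1.59e-05), 2.64-fold lower. Over the whole interval the log2 change was -1.04 ± 0.22 (adjusted p = 0.000491).

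Osr2, its paralogue, known for roles in palate and joint formation, was low, below the array median in most arrays. It ran from 6.40 through 6.78 to 6.93 at E11.5, from 6.19 through 6.66 to 6.82 at E12.5 and from 6.36 through 6.91 to 7.71 at E16.5. It was dim in 2, 3 and 3 of 8 arrays in stage order and below the array median in 8, 8 and 6. Means were 6.70 ± 0.23, 6.56 ± 0.22 and 6.94 ± 0.51, and diaphragm replicates 2 and 8 were high, at 7.71 and 7.69. No comparison passed: the log2 changes were -0.14 ± 0.17, 0.38 ± 0.17 and 0.24 ± 0.17 (adjusted p = 0.718, 0.0959 and 0.268). Without E16.5 replicate 3, its lowest diaphragm array, the second passed (0.46, adjusted p = 0.0372).

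**Figure D2:**
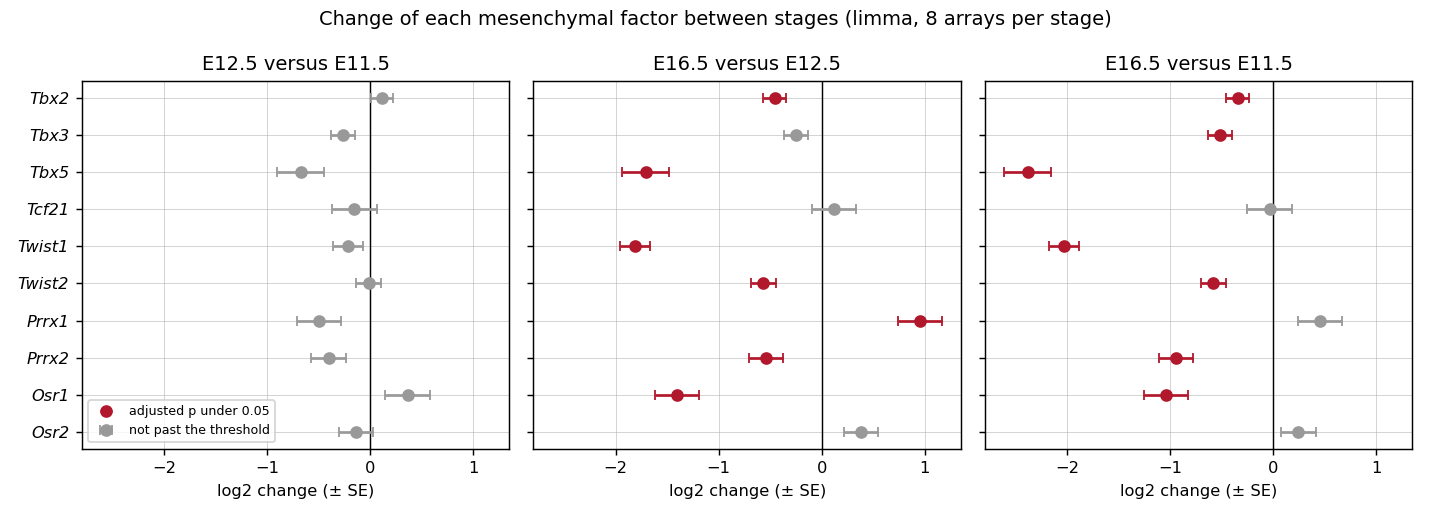
Log2 change of each factor (horizontal axes, ± SE) in the 3 comparisons of stages from limma with 8 arrays a stage; red points passed an adjusted p of 0.05 and grey points did not. No factor passed from E11.5 to E12.5; against E12.5, Tbx5, Twist1 and Osr1 lie beyond -1 and Prrx1 lies at 0.95.

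Whether related factors changed by unequal amounts was tested on the difference of their log2 values within each array, with an exact permutation test, two-sided, over the 16 arrays of 2 stages. The 4 pairs of paralogues and the pair Tbx3 and Tbx5, which lie near each other on a chromosome, gave 15 tests, adjusted together. From E12.5 to E16.5 Twist1 minus Twist2 shifted by -1.24 ± 0.19 (SE) on the log2 scale, Twist1 falling more, and Tbx3 minus Tbx5 by 1.46 ± 0.22, Tbx5 falling more (exact permutation p = 0.000155 for each, the smallest that 12870 arrangements allow; adjusted p = 0.000389). Osr1 minus Osr2 shifted by -1.78 ± 0.26 (exact permutation p = 0.000155, adjusted p = 0.000389). Most of that shift is the fall of Osr1 itself, -1.40. At E12.5 Osr2 was below the array median in 8 of 8 arrays and dim in 3, and at E16.5 in 6 and 3. Its share of the shift is thus not a reliable measure of its own change. Tbx5 was below the array median in 8 of 8 E16.5 arrays and dim in 3, so the size of its shift against Tbx3 is uncertain too. Prrx1 minus Prrx2 shifted by 1.49 ± 0.28, Prrx1 moving up against Prrx2 (exact permutation p = 0.000466, adjusted p = 0.000999). The within-array differences did not overlap between E12.5 and E16.5 for the Tbx3 and Tbx5, Twist and Osr pairs; they overlapped for the Prrx pair, through E12.5 replicate 1. A test of unequal change does not show that either member of a pair stayed the same. Since probe sets differ in brightness, it shows unequal change of signal and need not show unequal change of RNA.

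These 4 pairs also passed between E11.5 and E16.5, with shifts of 1.86 ± 0.30 for Tbx3 minus Tbx5, -1.45 ± 0.19 for Twist1 minus Twist2, 1.40 ± 0.21 for Prrx1 minus Prrx2 and -1.29 ± 0.33 for Osr1 minus Osr2 (exact permutation, adjusted p = 0.000389, 0.000389, 0.000389 and 0.00291). Tbx2 and Tbx3 were not told apart in this comparison (0.17 ± 0.15, exact permutation, adjusted p = 0.288) or from E12.5 to E16.5 (-0.21 ± 0.14, adjusted p = 0.213). Between the fold stages none of the 5 pairs passed after adjustment, and 1 had an exact p under 0.05. That was Tbx2 against Tbx3, at 0.38 ± 0.17 (exact permutation p = 0.0463, adjusted p = 0.0772). With E11.5 replicate 2 left out that pair passed (0.46, adjusted p = 0.0324), as it did with E12.5 replicate 6 left out (0.47, adjusted p = 0.0212), which also gave a pass from E12.5 to E16.5 (-0.29, adjusted p = 0.0476). Without E11.5 replicate 5 the Osr difference between the fold stages had an adjusted p of 0.0422 by the exact permutation test (0.65), but Osr2 was below the array median in all arrays of both stages, so nothing is read from it.

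**Figure D3:**
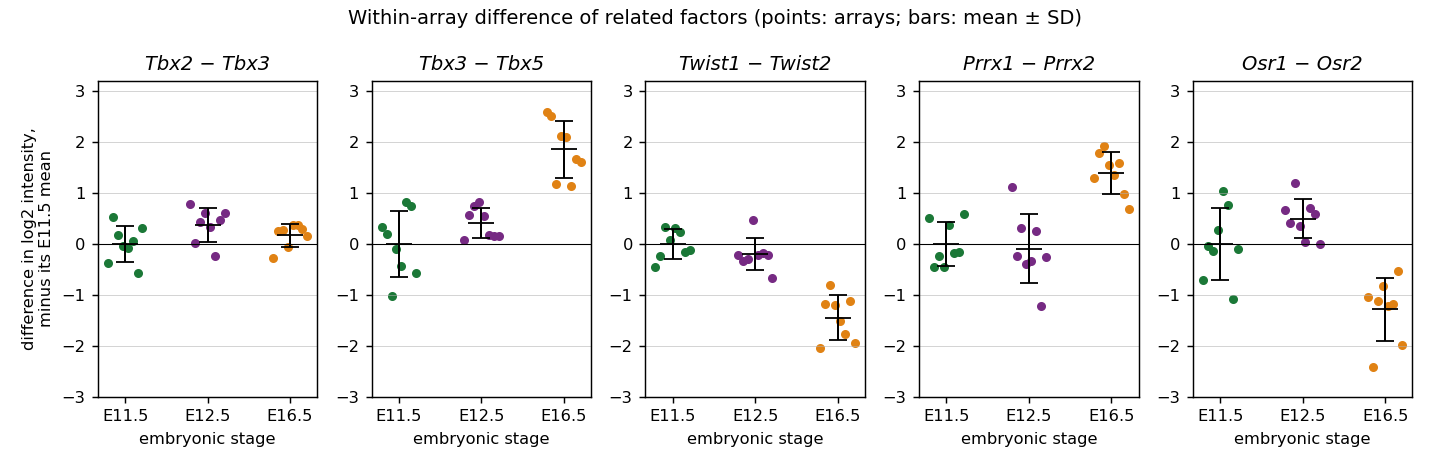
Difference in log2 intensity between 2 related factors within each array (vertical axes, with the E11.5 mean set to 0) against stage, 1 point per array and bars for mean ± SD. In 3 panels the E16.5 points lie wholly outside the E12.5 range, and the Tbx2 and Tbx3 panel has none of its stages apart.

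Extremes of the 10 factors are given here by array. How often each array was extreme over all genes was not counted, so nothing is read from these counts. E12.5 replicate 2 was the lowest array of its stage for 4 of the 10 factors (Tbx2, Tbx3, Twist1 and Prrx2) and the highest for 0. The mean of 12 hepatocyte markers was 11.88 in that array, against 8.01 to 10.26 in the other E12.5 arrays, and the mean of 12 skeletal muscle markers was 8.44 against 9.51 or more. E12.5 replicate 1 was highest for 4 factors (Tbx2, Prrx1, Osr1 and Osr2), and E16.5 replicate 7 for 4 (Twist1, Twist2, Prrx2 and Osr1). Without E12.5 replicates 2 and 4, the pair highest for hepatocyte markers, 6 factors fell, 1 rose and 3 did not pass from E12.5 to E16.5, the same counts as with all arrays.

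Markers of other tissues are given for comparison. From E12.5 to E16.5, 27.1% of all genes changed, 15.6% by falling. Skeletal muscle markers, 12 genes of sarcomere and myogenesis, had means per array of 8.18 to 9.46 at E11.5, 8.44 to 11.18 at E12.5 and 11.76 to 12.18 at E16.5, with 9 rising and 2 falling from E12.5 to E16.5. Hepatocyte markers ran from 6.96 to 7.22, from 8.01 to 11.88 and from 9.50 to 11.49, with 11 of 12 rising; 4 of the 12 were dim in over 4 arrays at E11.5, and 0 at the later stages. Endothelial markers ran from 8.07 to 8.56, from 7.98 to 8.55 and from 8.44 to 9.50 (6 of 8 rising), and lung epithelial markers from 6.47 to 6.70, from 6.28 to 6.60 and from 6.82 to 7.73 (1 of 6 rising, with 2, 3 and 2 dim in stage order). Red cell markers, which include embryonic globins, ran from 10.28 to 10.89, from 9.86 to 10.99 and from 7.65 to 8.98. From E12.5 to E16.5, 3 of 7 fell and 4 did not pass, with a median log2 change of -0.14. The mean of this list thus moved more than most of its genes. Mesothelial markers ran from 8.35 to 9.12, from 8.13 to 8.88 and from 7.89 to 8.69 (3 of 10 rising and 3 falling). Among the remaining lists, 2 of 8 cardiomyocyte and 1 of 4 smooth muscle markers rose, and 2 of 7 neuronal markers fell. Of 8 cartilage and bone markers, 1 rose and 1 fell. These shares were near that of all genes. Of 2 Schwann cell markers, 1 fell. No change of the 5 macrophage markers passed in limma, with 2 higher at an unadjusted p under 0.05. The part of these tissues in the falls of the mesenchymal factors was not tested.

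Markers of fibroblasts and connective tissue moved in both directions. Of 11 measured, 0 were dim in over 4 arrays of any stage, and the list had means per array of 9.21 to 9.65, 9.43 to 9.96 and 9.73 to 10.01. From E12.5 to E16.5, 6 of 11 rose and 4 fell, with a median log2 change of 0.36, where 27.1% of all genes changed. The risers were matrix and surface genes, among them Col6a1, a chain of type VI collagen (1.29 ± 0.13, adjusted p = 2.39e-08), and Dcn, the proteoglycan decorin (1.26 ± 0.32, adjusted p = 0.00383). Those that fell were Pdgfra and Pdgfrb, receptors for platelet-derived growth factors (-1.59 ± 0.12, adjusted p = 1.89e-10, and -0.98 ± 0.15, adjusted p = 1.14e-05), the chemokine Cxcl12 (-0.80 ± 0.15) and the Wnt effector Tcf7l2 (-0.65 ± 0.15).

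**Figure D4:**
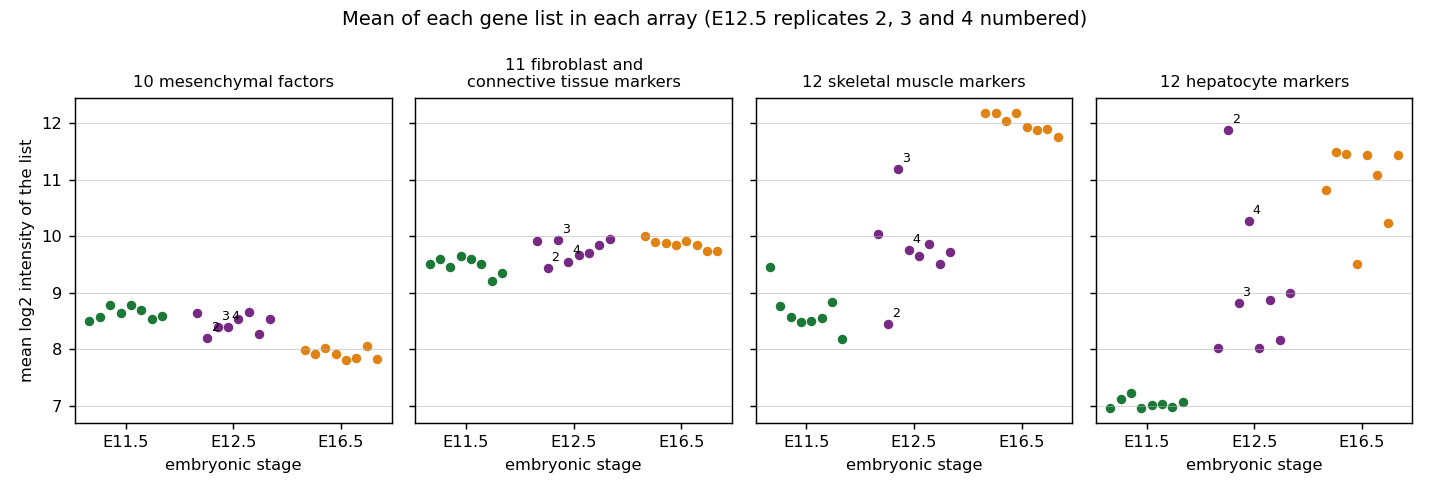
Mean log2 intensity (vertical axis) of 4 gene lists in each of the 24 arrays, by stage, with E12.5 replicates 2, 3 and 4 numbered. The 10 mesenchymal factors average 7.80 to 8.06 at E16.5 against 8.19 to 8.65 at E12.5, while the muscle list reaches 11.76 to 12.18.

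Of 12 other T-box genes measured, 2 rose from E12.5 to E16.5 and 10 did not pass, where 27.1% of all genes changed. Their median log2 change was 0.02. Against E11.5, 2 were higher and 4 lower at E16.5, where 33.5% of all genes changed and 19.6% were lower. Of those lower, Tbx22 was dim in 8 of 8 arrays at each stage and Tbr1 in 5 of 8 diaphragm arrays. In the diaphragm 6 of the 12 were dim in over 4 arrays. Tbx15, a T-box factor of limb and body wall mesenchyme and muscle, went from 5.68 ± 0.14 and 6.00 ± 0.37 in the folds to 8.39 ± 0.29 in the diaphragm (2.39 ± 0.14 against E12.5, adjusted p = 1.65e-12). It was dim in 8 and 7 of 8 fold arrays, so that rise is a lower bound at best. Tbx1, known from pharyngeal muscle, rose by 0.58 ± 0.16 (adjusted p = 0.00712). Tbx18, a factor of coelomic lining and body wall mesenchyme, was lower at E16.5 than at E11.5 (-1.03 ± 0.18, adjusted p = 6.56e-05), but 7 of 8 diaphragm arrays were dim.

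Dimer partners and inhibitors of bHLH factors, with other mesodermal bHLH genes, were measured too. Of 14 measured, 7 fell from E12.5 to E16.5 and 7 did not pass, with a median log2 change of -0.27. Over all genes 15.6% fell. Among the Id genes, whose proteins bind bHLH partners without binding DNA, Id3 fell by 1.49 ± 0.11 (adjusted p = 1.42e-10), Id2 fell by 1.17 ± 0.23 (adjusted p = 0.00029) and Id1 fell by 0.57 ± 0.10 (adjusted p = 9.5e-05), while Id4 had -0.19 (adjusted p = 0.152). Tcf3, which encodes the E protein partners E12 and E47, fell by 0.78 ± 0.10 (adjusted p = 8.78e-07).

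Forkhead genes of mesenchyme had 6 of 9 falling and 1 rising from E12.5 to E16.5 (median log2 change -0.69), where 27.1% of all genes changed and 15.6% fell. Foxc2, needed in paraxial and vascular mesenchyme, fell by 1.68 ± 0.30 (adjusted p = 0.00011), and Foxf1, a factor of visceral mesenchyme, fell by 1.41 ± 0.33 (adjusted p = 0.00179). Of 16 limb and mesenchyme homeobox genes, 1 rose and 3 fell (median -0.07), a share near that of all genes; those that fell include Alx1 (-1.29 ± 0.29, adjusted p = 0.00123) and Lhx2 (-1.22 ± 0.19, adjusted p = 2.19e-05), a regulator of limb outgrowth. Shox2, a limb bone gene, was the riser (0.73 ± 0.14, adjusted p = 0.000312) and was dim in 8, 8 and 7 of 8 arrays in stage order. Of 9 genes described elsewhere as targets of these factors, 1 rose and 2 fell over the same step (median -0.02), beside the same 27.1% over all genes. The falls were in Fgf10, a limb and lung growth factor activated by Tbx5 in limb mesenchyme (-0.61 ± 0.19, adjusted p = 0.0163), and in Gja1, which encodes connexin 43 (-0.63 ± 0.09, adjusted p = 3.86e-06), a gene that Tbx2 and Tbx3 repress in the heart. The riser was Cdh1, the adhesion protein E-cadherin, which Twist1 represses in other cells (0.40 ± 0.10, adjusted p = 0.00365). Between E11.5 and E12.5 limma called 0 genes in each of these lists, where 0.388% of all genes passed. At an unadjusted p under 0.05 there were 1 higher and 4 lower T-box genes, 1 higher and 3 lower bHLH genes, 1 higher and 1 lower homeobox gene, 2 lower forkhead genes, and 1 higher and 1 lower target.

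Genes with the most similar course were found by the root mean square difference of log2 values over the 24 arrays, each gene centred on its own mean. For Tbx5 the nearest was Meis1, a homeobox cofactor (0.44), then Daam2, a formin of Wnt signalling (0.44), and Sfrp1, a secreted Wnt inhibitor (0.49). For Twist1 they were Plk2, a stress-response kinase (0.33), Meis1 again (0.34) and Sulf2, an extracellular sulfatase (0.35). For Osr1 they were Adamts19 (0.37), Runx1, a runt-domain factor (0.39), and Acaca, an enzyme of fatty acid synthesis (0.39). For Prrx1 they were Kcne1l (0.34), Nos1 (0.38) and Rgs2 (0.40). Among the members themselves the smallest difference was between Tbx2 and Twist2 (0.31). Tbx5 and Twist1 differed by 0.56, with 0.129% of genes nearer to Tbx5 than Twist1 was. That was the lowest such share, counted from a single member of each pair. Few genes fell as deeply as Tbx5, so few could lie near it. Meis1 had log2 changes of -0.32 and -1.63 over the 2 steps, beside -0.68 and -1.71 for Tbx5 and -0.22 and -1.81 for Twist1.

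For Twist2 the nearest genes were Boc, a Hedgehog co-receptor (0.21), Insyn1 (0.21) and Marcks (0.21), for Tbx2 Ddr1 (0.17), Dgcr2 (0.17) and Sema3f (0.18), and for Tbx3 Rnf44 (0.19), Accs (0.20) and Rnf111 (0.21). For Prrx2 they were H2bc9 (0.30), Astn1 (0.30) and Abi2 (0.32). Tcf21 had Asz1 (0.34), Mtfr2 (0.35) and Ccdc89 (0.36) as its nearest genes, beside its own spread of 0.43 about its mean over the 24 arrays. Osr2 had Rbm47 (0.25), Apln (0.25) and Gtsf1 (0.26) beside a spread of 0.36. The stage means of Asz1, Ccdc89, Rbm47 and Gtsf1 were all below 6.40, the lowest lower quartile of an array. Their signal is not told from background, so nothing is read from their course.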

How the data were processed

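RNA of 24 samples went through NuGEN WT-Ovation Pico amplification before being hybridised to Affymetrix Mouse Gene 1.0 ST arrays, per the labels. As deposited, the values are log2 intensities with 1 per probe set and array, from 2.56 to 14.1, with 0 missing; the log2 scale was read from their range. The submitters' processing notes name Affymetrix Expression Console 1.1, RMA and R 2.9.2 without their roles. RMA as usually run subtracts background, equalises array distributions and combines a probe set's probes robustly, which compresses changes of dim genes. Joint normalization of the 3 stages is not given in the sources used here.

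Of 24200 probe sets, 20760 had 1 gene symbol in the platform annotation, 1140 had several and 2300 had none. The probe set with the highest mean was kept for 804 genes with several, which left 19351 genes; each of the 10 factors had 1 probe set. A linear model with stage as its sole term was fitted to every gene (limma 3.58.1, R 4.3.3; moderated by eBayes, two-sided), and Benjamini-Hochberg adjustment ran over the whole table. The code was tested on simulated data. Pairs of factors used an exact permutation test. Tables and figures were made with Python 3.11.15. Promoter sequences came from RefSeq (GRCm38.p6), whose table matched 5 of the 10 factors. The members and gene lists were chosen with earlier results of these data known. Named genes are all members, up to 4 changed genes of each related list per comparison, cell type markers, and the 3 genes nearest in course to each member; Gm and Rik models, chemosensory receptors and small RNAs were left out of the last group.

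Alternatives were quantile normalization again, centring arrays on the median or the 75th percentile, leaving out the dimmest 25% of genes, averaging a gene's probe sets, fits without the remaining stage, a block for replicate number, trended and robust eBayes, and leaving out single arrays or sets of arrays.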

Additional observations from a re-analysis of the deposited data

Results flagged for a closer look

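Prrx1 in E16.5 replicate 8 lay at 9.08, apart from the other 7 diaphragm arrays, of which the nearest was at 9.85. Its gap to that array took 0.592 of the stage's range, above Dixon's critical value at 95% for 8 arrays. It was the 1 array singled out in 30 groups of 8 arrays, and chance singles out about 5% of groups. Without it Prrx1 had a log2 change of 1.08 ± 0.20 from E12.5 (adjusted p = 0.000178 in limma) and of 0.58 ± 0.20 from E11.5 (adjusted p = 0.0286).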

How the results depend on the processing

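All 14 calls of a factor between stages held when each of the 24 arrays was left out in turn, and under each scaling, filter and variance setting. Calls lost with 4 diaphragm arrays left out are given with the genes. With single arrays left out, the number of factors that rose ran from 1 to 2 against E12.5 and from 0 to 1 against E11.5, and it was 0 against E12.5 without E16.5 replicates 1 to 4. Estimates near 0 changed sign. Twist2 between the fold stages was 0.10 without E12.5 replicates 2 and 4 and ran from -0.090 to 0.058 with single arrays left out. Tcf21 between E11.5 and E16.5 was 0.060 without E16.5 replicates 5 to 8 and ran from -0.18 to 0.042, and from E12.5 it ran from -0.020 to 0.23. For pairs between the fold stages, single arrays gave 0.30 to 0.47 for Tbx2 minus Tbx3, -0.27 to 0.066 for Prrx1 minus Prrx2 and 0.34 to 0.65 for Osr1 minus Osr2; Tbx2 minus Tbx3 ran from -0.29 to -0.14 from E12.5 to E16.5.

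Over all genes, 75 changed from E11.5 to E12.5, and this number depended on the fit. It was 49 after quantile normalization again, 9 with only those stages fitted, 114 without E12.5 replicates 2 and 4, and 32 and 34 without E16.5 replicates 1 to 4 and 5 to 8. Single arrays left out gave 26 to 151: of the E11.5 arrays, leaving out replicate 4 gave 137, replicate 5 gave 43, replicate 7 gave 38 and replicate 8 gave 42, and of the E12.5 arrays, replicate 1 gave 26, replicate 2 gave 151, replicate 3 gave 31, replicate 6 gave 36, and replicates 4 and 8 gave 33 each. Of the 75, 64 were higher, against 52 of 83 when arrays were centred on their medians and 33 of 64 when centred on their 75th percentiles. Without E16.5 replicates 1 to 4, 3479 genes changed from E12.5 in place of 5241, and 4265 from E11.5 in place of 6479. Without replicates 5 to 8, which leaves as many arrays, the numbers were 4918 and 5481. The cause of the difference was not tested. With replicate number as a block, 43 genes changed between the fold stages, 5046 from E12.5 and 6136 from E11.5, and no call of a factor changed. Same-numbered arrays did not deviate together (correlations from -0.28 to 0.09 over 24 pairs, best with their own number in 3 of 48 checks), so the numbers do not pair the samples. With 8 arrays a stage, changes near their standard error were not detectable and clearly larger ones could be missed. Signal below an array's lower quartile gave no reliable change.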

Other observations

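Genes of the transition between epithelium and mesenchyme, a process in which Twist1 takes part, changed in both directions in the diaphragm. Of 7 measured, 2 rose and 2 fell from E12.5 to E16.5, where 27.1% of all genes changed and 15.6% fell. Against E11.5, 3 were higher and 3 lower, where 33.5% of all genes changed and 19.6% were lower. Cdh2, the adhesion protein N-cadherin, fell from 10.23 ± 0.15 (SD, n = 8) at E12.5 to 8.18 ± 0.64 at E16.5 (log2 change -2.06 ± 0.19, adjusted p = 6.2e-09 in limma). Snai2, a zinc finger repressor, fell by 0.84 ± 0.16 (adjusted p = 0.000318). Cdh1, the epithelial E-cadherin, rose by 0.40 ± 0.10 (adjusted p = 0.00365), and Vim, an intermediate filament of mesenchyme, by 0.17 ± 0.06 (adjusted p = 0.049). The lung epithelial marker list ran from 6.82 to 7.73 in the diaphragm arrays against 6.28 to 6.60 at E12.5. Only 1 of its 6 genes rose, with a median log2 change of 0.08, so its mean moved more than most of its genes. Over the same step 11 of 12 hepatocyte markers rose, and of 10 mesothelial markers 3 rose and 3 fell. The part of these tissues in the rise of Cdh1 was not tested.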
